A study of Mus musculus with 192 samples.

Results

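The cells described here were 55 single mouse bone marrow progenitors with a strong CD135 antibody signal and without a strong CD127 signal, taken from 192 cells in all. In each of the 2 library pools of 96 cells, the 32 cells with the highest CD135 signal were taken, and those with a CD127 signal above 2000 arbitrary units were set aside. This left 29 cells in pool 1 and 26 in pool 2. They were divided at their own median CD127 signal within the pool, which gave 27 cells with moderate CD127 (14 and 13), 27 with low CD127 (14 and 13) and 1 cell of pool 1 that lay at the median and was on neither side. The 9 CD135-high cells with CD127 above 2000 (3 and 6) served for comparison. The question was whether CD127 signal below its high tail goes with a difference in mRNA.

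The cells were index-sorted LSK (lineage-negative, Sca-1-positive, cKit-positive) cells of C57BL/6 mice aged 8 to 16 weeks, with no treatment named. Magnetic beads had enriched the marrow for cKit-bearing cells, and the sorter recorded the antibody signals and scatter of each cell it placed in a well. All sides compared share this strain, enrichment and sort. No label names an animal, its sex or how many animals were pooled, so the cells together are 1 biological sample: no test across samples was possible, no p-value is given, and the 95% intervals cover counting error in these cells only.

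CD127 is the alpha chain of the interleukin-7 receptor, encoded by Il7r. It pairs with the common gamma chain, Il2rg, and signals through the kinases Jak1 and Jak3 to Stat5, and it is used to mark progenitors committed to the lymphoid lineages. CD135 is the receptor tyrosine kinase Flt3, whose strong expression in LSK cells marks multipotent progenitors that begin to transcribe lymphoid genes such as Dntt, the template-independent DNA polymerase TdT. Rag1 encodes a subunit of the recombinase that assembles antigen receptor genes.

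The 27 moderate cells held 502054 gene UMIs (unique molecular identifiers, which count mRNA molecules) and the 27 low cells 476454. The lowest, median and highest cell held 8927, 16359 and 35217 UMIs on the moderate side and 7243, 17055 and 29327 on the low side. The 9 cells with CD127 above 2000 held 206278. The same 96 cell indices were used in both pools, so a cell is identified by its pool and index together. Levels are given as CPM, counts per 1000000, the UMIs of a gene relative to all gene UMIs of the cell or of the summed side.

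The dividing line between the sides was narrow. The CD127 signal ran from 150 to 1598 in pool 1 around a median of 566, and from -61.3 to 1980 in pool 2 around a median of 569. The cells nearest the median had 548 and 615 in pool 1 and 564 and 574 in pool 2. The lowest signal of the cells set aside was 3370 in pool 1 and 2725 in pool 2, so no CD135-high cell of pool 1 lay between 1598 and 3370. For CD135, the last cell inside and the first outside had 1118 and 1110 in pool 1 and 1132.4 and 1132.1 in pool 2.

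Other signals moved with CD127, and not alike in both pools. The rank correlation (Spearman's rho) of CD127 with CD135 was 0.61 over the 29 cells of pool 1 and -0.22 over the 26 cells of pool 2. With forward scatter, which follows cell size, it was 0.49 and 0.07. The median CD135 signal was 1899 on the moderate and 1380 on the low side in pool 1, against 1564 and 1518 in pool 2. In pool 1 moderate CD127 therefore also meant more CD135. CD11b and side scatter rose in rank with CD127 in both pools (rho 0.31 and 0.36, and 0.30 and 0.27), and the spike-in share of UMIs went the other way (-0.41 and -0.29). The protocols' partial list of antibodies does not name CD11b, so what stain that signal comes from is not known. The part of these signals in the mRNA differences was not tested, except where sides matched for CD135 or forward scatter are given. These correlations describe cells that share a pool and a stain.

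**Figure D1:**
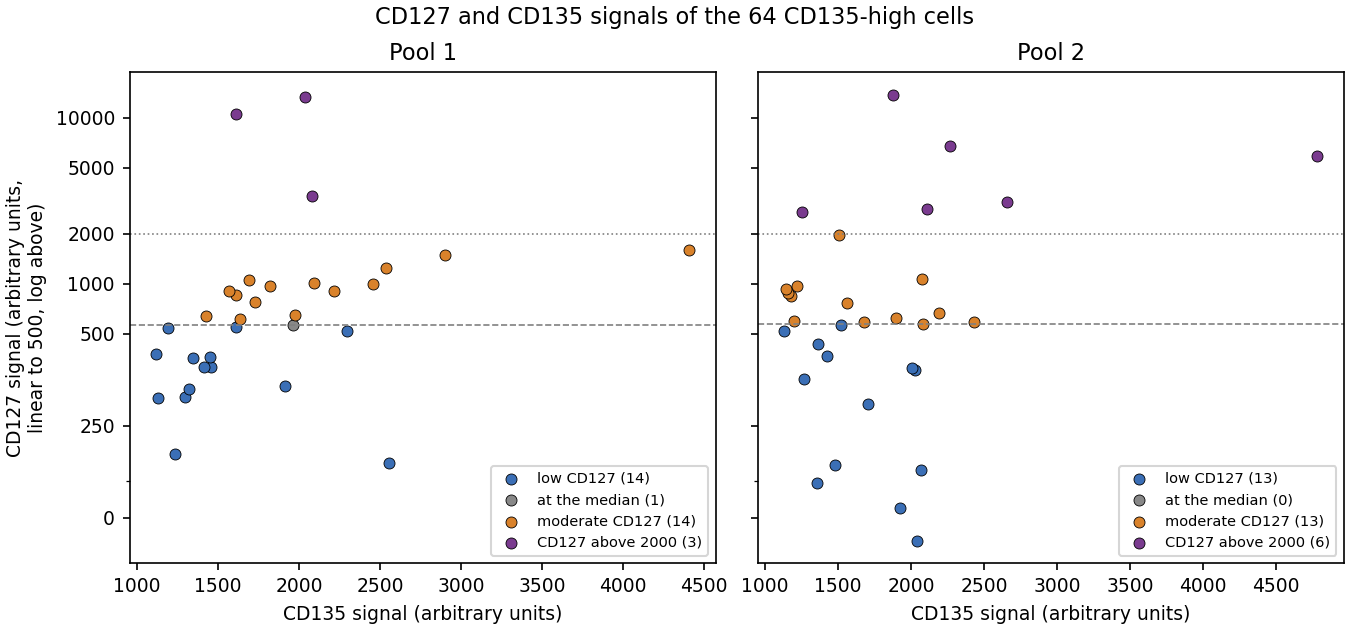
CD127 signal (vertical, arbitrary units, linear to 500 and logarithmic above) against CD135 signal (horizontal, arbitrary units) for the 64 CD135-high cells, 1 point per cell, by library pool. The dashed line is the pool's median CD127 without the cells above 2000 (dotted line). In pool 1 most moderate cells lie to the right of most low cells (median CD135 1899 and 1380), and in pool 2 the medians are 1564 and 1518.

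The mRNA of CD127 itself did not mark the moderate side. Il7r (chromosome 15, 9505788 to 9530176, minus strand, GRCm38) had 0 UMIs in the 27 moderate cells and 1 UMI in the 27 low cells, while the 9 cells with CD127 above 2000 held 41, or 199 CPM. In those 9 cells the lowest, median and highest level was 0, 111 and 435 CPM, and 6 of the 9 had a UMI. With a floor of 3 UMIs, a count of 0 was set at 5.98 CPM in the summed moderate cells and a UMI in 11.1% of them. The exact upper 95% limits were 7.35 CPM and 12.8%. With the 41 UMIs taken as counted, the Il7r level above 2000 was 33.3-fold that floor of the moderate side. The lower 95% counting limit of the ratio was 25.9-fold. The single Il7r UMI of the low side came from the cell with the lowest CD127 signal of pool 1, 150, which also held the only Cd79a UMI of the 54 cells. The word moderate thus refers to the antibody signal alone.

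The recombinase genes gave the same picture. Rag1 (chromosome 2, 101638282 to 101649501, minus strand) had no UMI on either side and 8 UMIs in 4 of the 9 cells with CD127 above 2000. That level was 6.49-fold the floor of the moderate side, and the lower 95% counting limit of the ratio was 4.15-fold. Rag2, its partner, had 6 UMIs in 5 moderate cells, 4 in 3 low cells and 8 in 3 of the cells above 2000. Of the 6 moderate UMIs, 5 came from pool 1. Ebf1 and Pax5, transcription factors that define the B lineage, had no UMI on either side, and Tcf7, which marks T lineage specification, had none.

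Dntt was at the same level on both sides. Its UMIs (chromosome 19, 41029275 to 41059525, plus strand) numbered 323 in the moderate and 298 in the low cells, or 643 and 625 CPM, against 1876 CPM in the cells above 2000. The lowest, median and highest cell had 0, 527 and 2464 CPM on the moderate side, 0, 373 and 4559 CPM on the low side, and 848, 1892 and 3017 CPM above 2000. The sides overlapped almost entirely, and the median of the cells above 2000 lay above all but 1 cell of each side, as the plot of mRNA per cell shows. The log2 ratio of moderate over low was 0.04 (-0.19 to 0.27), with -0.01 in pool 1 and 0.11 in pool 2.

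This equality of Dntt depended on 1 cell and on CD135. A low cell of pool 1 with a CD127 signal of 325 held 90 of the 621 UMIs, 14.5%, and without it the ratio was 0.50 (0.24 to 0.76), with 0.80 in pool 1 and 0.11 in pool 2. When the sides were instead taken within CD135-matched strata of each pool, the ratio was -0.65 (-0.88 to -0.41), and -0.26 (-0.52 to -0.00) without the same cell. Pool 2, where CD127 and CD135 were not positively correlated, gave -0.02 with matched CD135 and 0.11 without matching. No direction of Dntt with moderate CD127 held across these choices.

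**Figure D2:**
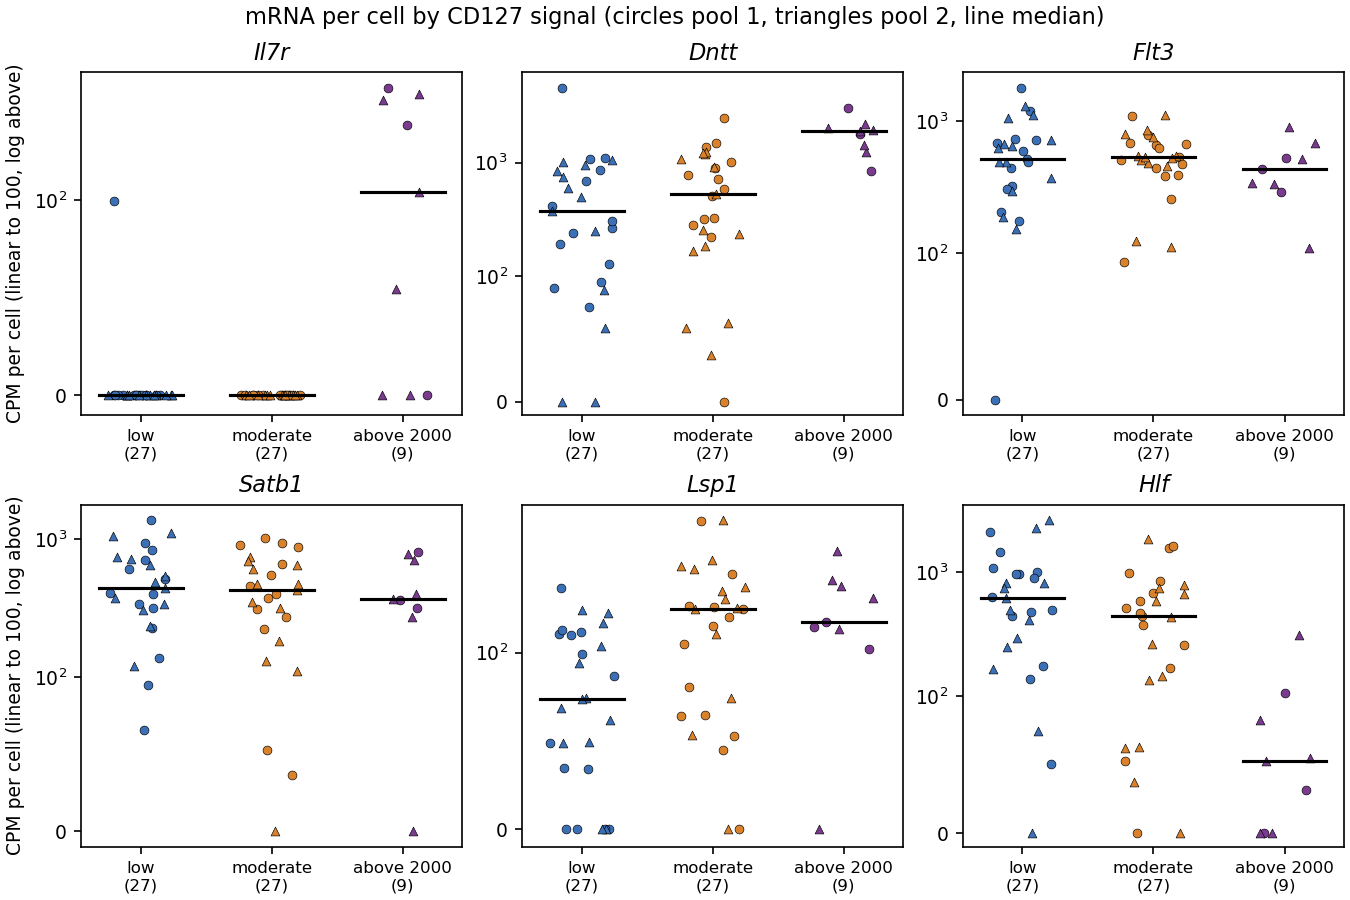
CPM per cell (vertical, linear to 100 and logarithmic above) of 6 genes in the low (27 cells), moderate (27) and above-2000 (9) CD127 cells; circles are pool 1, triangles pool 2 and lines medians. Il7r is at 0 in all but 1 of the 54 cells at or below 2000, Dntt and Flt3 overlap between low and moderate, and Lsp1 has medians of 73.7 and 188 CPM.

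Across all genes, the ratios of pool 1 said nothing about those of pool 2. A gene was counted with at least 50 UMIs over both sides and no cell holding over 20% of them, which 3428 genes met, 3427 of them with UMIs in both pools. Of these, 1682 had the same sign in both pools, 49.1%, and the correlation of the ratios across genes was 0.01 (Pearson; Spearman 0.00). Among the 754 genes with at least 200 UMIs, 379 or 50.3% had the same sign, with a Pearson correlation of 0.03. The genes share the same cells and are not independent, so these values describe the pools and are no test. Under the 11 other settings in which the share was computed, it lay between 48.1% and 50.7%.

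The same measure was higher for the cells with CD127 above 2000 and in the cells of lowest CD135, but not in those of middle CD135. These comparisons were added after the values were seen, and the differences between them were not tested. At the minimum of 50 UMIs, the ratios of the cells with CD127 above 2000 over the moderate cells had the same sign in both pools for 55.4% of 2356 genes (Pearson correlation 0.17), and over the low cells for 58.2% of 2307 genes (0.27). At 200 UMIs the shares were 61.4% of 534 genes (0.47) and 63.4% of 525 genes (0.52). They share the moderate and low cells with the comparison above. For moderate over low CD127 in the cells of lowest CD135 signal (30 and 29 cells), the share was 55.7% of 4174 genes at 50 UMIs (0.16) and 61.2% of 933 genes at 200 UMIs (0.32). In the cells of middle CD135 (31 and 31 cells) it was 49.7% of 4165 genes (-0.03) and 51.3% of 930 genes (0.01). In the cells of lowest CD135, G2 and M phase genes had a median log2 ratio of 1.67, with 29 of 30 higher on the moderate side, and lymphoid genes a median of -0.49, with 5 of 29 higher. Over all genes of that comparison the median was -0.03, with 47.7% higher.

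**Figure D3:**
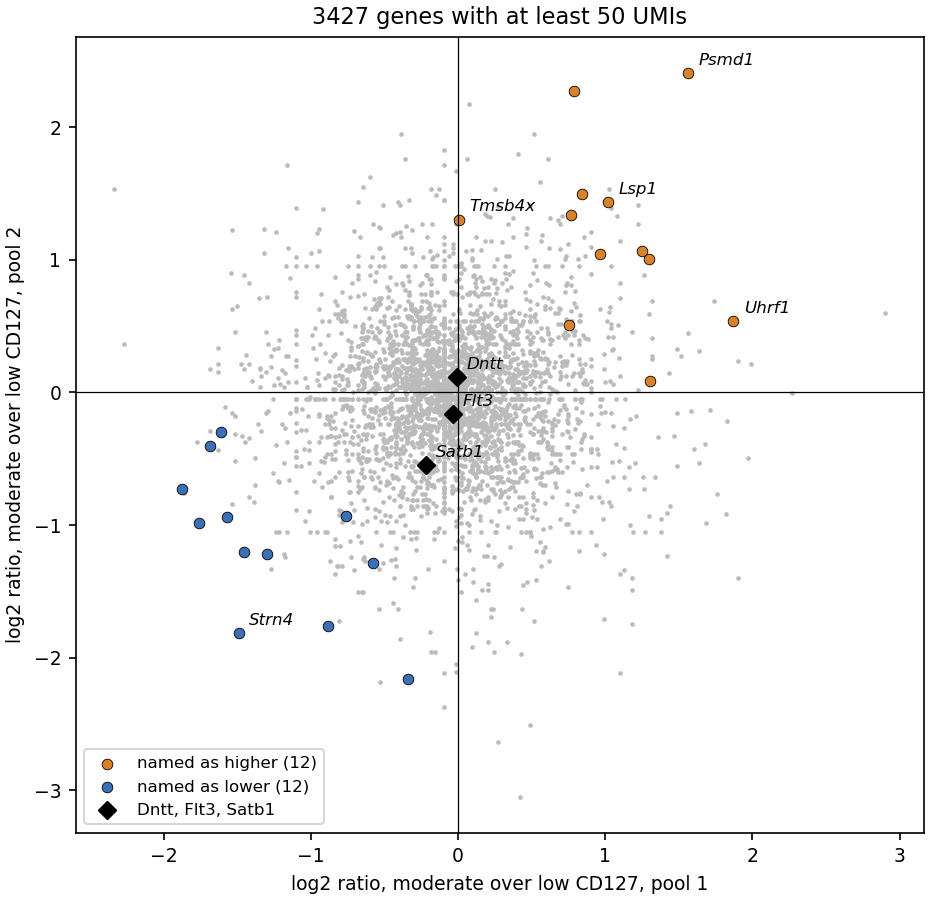
Log2 ratio of moderate over low CD127 in pool 1 (horizontal) and pool 2 (vertical), 1 point per gene, for 3427 genes with at least 50 UMIs. The cloud has no slope (Pearson correlation 0.01), the 12 genes named in each direction lie at its upper right and lower left because the rule asks for the same sign in both pools, and Dntt, Flt3 and Satb1 lie near the centre.

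Past 2-fold with the same sign in both pools, 29 of the 3428 genes were higher on the moderate side (0.846%) and 31 lower (0.904%). Dividing the same cells at the median of another signal gave counts of the same size. Above over below the Sca-1 median, 26 of 3440 genes were higher (0.756%) and 26 lower (0.756%). For cKit they were 30 (0.886%) and 24 (0.709%) of 3385 genes, and for CD16/32 24 (0.7%) and 29 (0.846%) of 3429. The share of genes with the same sign in both pools was 52.0% for Sca-1, 44.7% for cKit and 50.0% for CD16/32. The 4 divisions share all their cells but those at a median.

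The genes named next were chosen by how far their interval lay from 0, whatever the fold, and 8 of the 12 in each direction passed 2-fold. The first of the higher genes was Psmd1 (chromosome 1, 86064387 to 86139151, plus strand), a subunit of the 26S proteasome's regulatory particle. It had 60 UMIs in the moderate and 16 in the low cells, and a lowest, median and highest cell of 0, 105 and 359 CPM against 0, 0 and 138 CPM. A UMI was seen in 23 moderate and 13 low cells. The log2 ratio was 1.83 (1.02 to 2.73), with 1.56 and 2.41 in the pools. The rank correlation of Psmd1 with CD127 signal was 0.55 and 0.57. Psmd1 was chosen for its difference between the sides in these same cells, so this correlation is no independent support. In pool 1 Psmd1 was ranked with CD135 as well (0.58; 0.22 in pool 2).

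Both higher genes of the lymphoid list encode leukocyte proteins of the actin cortex and cell surface. Lsp1 (chromosome 7, 142460809 to 142494867, plus strand), an F-actin-binding protein of lymphocytes and myeloid cells, had 95 against 38 UMIs, and a lowest, median and highest cell of 0, 188 and 686 CPM on the moderate side and 0, 73.7 and 254 CPM on the low side. Its log2 ratio was 1.25 (0.69 to 1.83), 1.02 and 1.44 in the pools, and its level above CD127 2000, 189 CPM, was that of the moderate side. Selplg, the selectin ligand PSGL-1, had 78 against 35 UMIs and a ratio of 1.08 (0.49 to 1.70), 0.77 and 1.34 in the pools. These were 2 of 25 lymphoid genes counted, beside 0.846% of all genes. None of the 25 was past 2-fold lower, beside 0.904% of all genes.

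Other named higher genes serve secretion, chromatin and the cytoskeleton. Copa, a coat protein of Golgi vesicles, had a log2 ratio of 1.09 (0.51 to 1.70) and Pdia6, a disulfide isomerase of the endoplasmic reticulum, 1.13 (0.48 to 1.81). Ezh2, the methyltransferase of Polycomb complex PRC2, had 80 against 38 UMIs (1.00, 0.42 to 1.60), and Hmgn2, a nucleosome-binding protein, 310 against 183 (0.68, 0.42 to 0.96). Rbm7, an RNA-binding protein of nuclear RNA decay, and Helz, a helicase, had ratios of 1.30 and 1.16.

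For the remaining 3 higher genes 1 pool or 1 cell carried the ratio. Uhrf1, which maintains DNA methylation during replication, had 1.87 in pool 1 and 0.54 in pool 2, and was seen in 10 moderate and 11 low cells. Tubb5, a beta-tubulin, had 1.30 and 0.09. Tmsb4x, which sequesters actin monomers, had 0.01 and 1.30, and without the cell holding 19.2% of its UMIs its ratio was 0.25 in place of 0.72.

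The named lower genes had no lymphoid member. Strn4 (chromosome 7, 16815889 to 16840931, plus strand), a striatin scaffold of phosphatase complexes, had 13 UMIs in 12 moderate cells and 38 in 20 low cells, a log2 ratio of -1.62 (-2.66 to -0.68), -1.49 and -1.81 in the pools. Its median cell was at 0 CPM on the moderate side and 64.4 CPM on the low side. Nedd4, a ubiquitin ligase, had 102 against 173 UMIs (-0.84, -1.21 to -0.48), and Rnf2, the ubiquitin ligase of Polycomb complex PRC1, 17 against 40 (-1.31, -2.22 to -0.46). Tsr1 and Nop14, which mature the small ribosomal subunit, had ratios of -1.31 and -1.32. Ankrd11, a chromatin regulator, had -1.61 in pool 1 and -0.30 in pool 2. Gtf2i, a transcription factor, had -0.88, and Ociad1, Mesd, Dmac1 and Ttc9c lay between -1.32 and -1.26. Gsto1, a glutathione transferase, had 39 against 74 UMIs.

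The sizes of these ratios depended on how the cells were matched. With sides taken within CD135-matched strata, the 12 higher genes kept their direction and 2 of them passed 2-fold, in place of 8, with log2 ratios from 0.57 to 1.06. The 12 lower genes kept theirs and 5 passed, in place of 8, with ratios from -1.37 to -0.21. With forward scatter matched, 3 in each direction passed 2-fold. Psmd1 had 1.06 with CD135 matched and 0.81 in the 24 cells of each pool with the highest CD135, and Lsp1 had 0.65 and 1.42 with CD135 and forward scatter matched. Nedd4 had -0.21 with CD135 matched. These settings share most cells with the division that chose the genes, so the kept direction is no independent support.

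Genes of the interleukin-7 pathway did not differ as a group. Of 26 listed genes, 20 had at least 10 UMIs. Their median log2 ratio was -0.08, with 7 higher on the moderate side, beside a median of -0.06 and 46.5% higher over 9497 genes of the same minimum. None of the 14 counted passed 2-fold. Of all genes counted, 0.846% did so higher and 0.904% lower, so none among 14 says little about the pathway. The receptor's gamma chain Il2rg had 38 against 62 UMIs (-0.78, -1.40 to -0.18; -0.86 and -0.67 in the pools). Jak1 had 167 against 166, Stat5a 11 against 11 and Stat5b 27 against 25. Of the targets, Cish had 7 on each side, Pim1 112 against 137 and the survival gene Mcl1 68 against 56.

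The widest ratio of the pathway belonged to Bcl2l11, which encodes the pro-apoptotic protein BIM. It had 3 UMIs in 3 moderate cells and 17 in 10 low cells, a log2 ratio of -2.58 (-4.99 to -0.79), with -2.80 and -2.05 in the pools. These 20 UMIs fell below the 50 asked for above, and 1 low cell held 5 of them. Without that cell the ratio was -2.14 (-4.60 to -0.25). In the cells with CD127 above 2000, Bcl2l11 was at 33.9 CPM, near the 35.7 CPM of the low side, against 5.98 CPM on the moderate side. The survival gene Bcl2 had a ratio of -0.31 (-0.77 to 0.15) and 276 CPM above 2000.

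Lymphoid priming genes lay around 0. Of 39 in the counts, 33 had at least 10 UMIs, with a median log2 ratio of -0.00 and 16 higher on the moderate side, and medians of -0.04 and -0.05 in the pools. Of the 33, 12 had the same sign in both pools. Over all genes the share was 49.1%, at the higher minimum of 50 UMIs, and the difference was not tested. The summed level per cell was lowest, median and highest at 4762, 6174 and 13218 CPM in moderate cells and 3768, 6919 and 13069 CPM in low cells, and the ranges coincided. In the cells above 2000 they were 6782, 9197 and 11836 CPM. The median log2 ratio of these genes for cells above 2000 was 0.25 over the moderate side and 0.37 over the low side, comparisons that share the cells above 2000. The medians over all genes were -0.04 and -0.10.

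Single lymphoid genes went in both directions. Flt3, the gene of CD135, had 268 against 272 UMIs (-0.10, -0.35 to 0.15) and was seen in 27 and 26 cells. Ighm, the immunoglobulin mu heavy chain locus, had a lowest, median and highest cell of 106, 547 and 1568 CPM on the moderate side and 0, 329 and 1292 CPM on the low side. Its ratio was 0.36 (0.09 to 0.64), with 0.13 and 0.59 in the pools and 0.00 with CD135 matched. Satb1, a chromatin organiser of lymphoid commitment, had 211 against 257 UMIs (-0.36, -0.63 to -0.09; -0.22 and -0.55 in the pools). Its levels ran from 0 over 431 to 1023 CPM in moderate cells and from 66.1 over 445 to 1368 CPM in low cells, so the medians were alike. Tcf4 and Sox4, transcription factors of lymphoid progenitors, had ratios of -0.34 and -0.27, nearly all from pool 1 (-0.62 and -0.06, and -0.56 and -0.01).

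Dach1, the transcriptional co-repressor in the title of the series, had 16 UMIs in 5 moderate cells, 24 in 13 low cells and 1 in the cells above 2000. Its position is chromosome 14, 97786853 to 98169765, minus strand. The log2 ratio was -0.66 with an interval from -1.67 to 0.31 that spans 0. A moderate cell of pool 1 held 9 of the 40 UMIs, and without it the ratio was -1.78 (-3.24 to -0.52). With cells thinned to 12147 UMIs, leaving 24 on each side, a UMI was expected in 13.5% of moderate and 40.4% of low cells, against 18.5% and 48.1% unthinned.

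Cd34, Lmo2 and Hlf, genes of immature progenitors, had somewhat lower levels on the moderate side. Cd34, a sialomucin of early progenitors (chromosome 1, 194938819 to 194961279, plus strand), had a lowest, median and highest cell of 0, 470 and 1169 CPM on the moderate side, 442, 745 and 1469 CPM on the low side and 106, 381 and 949 CPM above 2000. No low cell was below 442 CPM, but 11 of the 27 moderate cells were, 6 in pool 1 and 5 in pool 2, and above that level the sides overlapped. The ratio was -0.51 (-0.75 to -0.28), -0.56 and -0.46 in the pools and -0.43 with CD135 matched, and the rank correlation with CD127 was -0.49 and -0.42. Lmo2, an adaptor of blood cell transcription complexes, had 259 against 342 UMIs, -0.48 (-0.72 to -0.24), -0.48 in each pool, and -0.15 with CD135 matched. Its level was 718 CPM in low cells, 516 in moderate cells and 194 above 2000. Hlf, a stem cell transcription factor, had 343 UMIs in low and 270 in moderate cells, 720 and 538 CPM, and 82.4 CPM above 2000. Its ratio was -0.42 (-0.66 to -0.19), with -0.11 in pool 1 and -0.90 in pool 2, and 0.24 in the 24 cells of each pool with the highest CD135.

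The stem cell list as a whole did not hold this direction in both pools. Of its 21 genes with at least 10 UMIs, 7 were higher on the moderate side, with a median of -0.20, 0.05 in pool 1 and -0.51 in pool 2. Beside Hlf, 3 of its members had an interval that excluded 0, and they were picked out after their values were seen. Meis1, a homeobox factor, had 115 against 149 UMIs (-0.45; -0.40 and -0.53 in the pools) and Prdm16 2 against 11, while Mycn had 32 against 13 (1.22; 1.81 and 0.87). For the cells above 2000 over the moderate side the median was -1.12, with 0 of 18 genes higher. Over all genes of that comparison the median was -0.04, with 48.4% higher.

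The median ratio of cell cycle genes was above 0 in pool 1 but not in pool 2. The S phase list had a median of 0.28 with 21 of 28 genes higher, 0.54 in pool 1 and -0.10 in pool 2. Leaving out the cell that held 10.3% of its UMIs gave 0.029. Its summed level in the median cell was lower on the moderate side, 879 against 1017 CPM, and 1039 against 1401 CPM in pool 1. The G2 and M phase list had a median of 1.11 with 17 of 19 higher, 1.43 in pool 1 and -0.05 in pool 2. The median over all genes in pool 2 was also -0.05. For 14 of the 19, 1 cell held more than 20% of the UMIs. A single pool 1 cell had a CD127 signal of 1482, the second highest among the moderate and low cells of its pool. It held 275 of the list's 1092 UMIs, 25.2%, and 54 of the 152 of Top2a, the topoisomerase of mitotic chromosomes. The 5 cells with the highest share of these genes among their own UMIs, 4 of them moderate, held 472 UMIs, 43.2%, and without them the median was -0.08. The summed level of these genes in the median cell was 768 CPM on the moderate and 653 CPM on the low side.

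**Figure D4:**
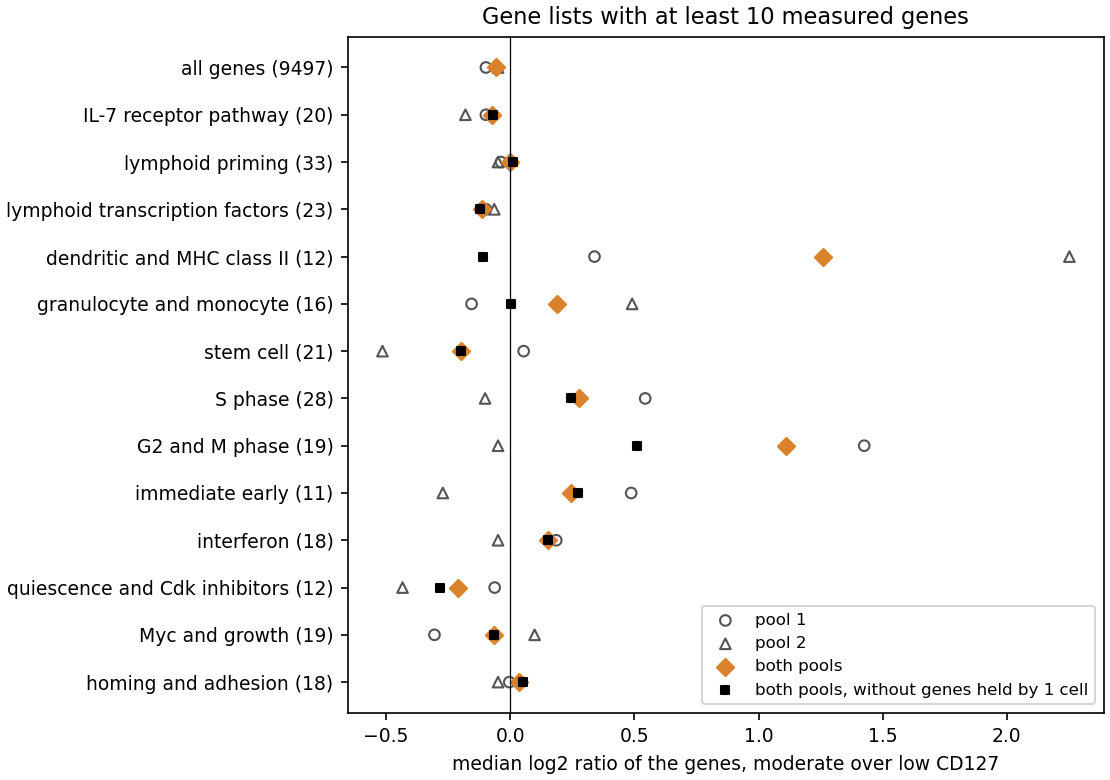
Median log2 ratio of moderate over low CD127 (horizontal) for gene lists with at least 10 measured genes (number in brackets) and all genes; diamonds are both pools, open circles pool 1, open triangles pool 2 and squares both pools without genes held by 1 cell. The lymphoid and interleukin-7 lists sit near 0, and the G2 and M phase (1.43 and -0.05) and class II (0.34 and 2.25) lists differ between the pools.

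The high value of class II antigen presentation genes rested largely on 1 cell. Their list, which also holds dendritic cell genes, had a median of 1.26, with 8 of 12 genes higher, and -0.11 over the 5 genes not held by 1 cell. A moderate cell of pool 2 with a CD127 signal of 597, near the median, held 491 of the 2009 UMIs. In it were 155 of the 196 UMIs of Cd74, the class II invariant chain, 28 of 72 of Irf8 and 26 of 31 of Id2, both transcription factors of dendritic and other lineages, and 1 Dntt UMI. Without this cell Cd74 had 32 against 9 UMIs (1.80, 0.70 to 3.05; 0.55 and 3.45 in the pools) and H2-Aa, a class II alpha chain, 31 against 10 (1.60, 0.54 to 2.80; 1.99 and 1.28), with 15 of the 31 in another moderate cell. H2-Ab1 and H2-Eb1, class II beta chains, then had 0.76 (-0.21 to 1.79) and 0.46 (-0.82 to 1.79). The summed level of the list in the median cell was 1501 CPM on the moderate and 1550 CPM on the low side. Siglech, Itgax and Cd209a, also on the list, had 1, 2 and 0 UMIs on both sides together.

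Early myeloid genes were detected on both sides. The granulocyte and monocyte list had 1207 UMIs on the moderate and 1065 on the low side. Mpo, a granule peroxidase, had 67 against 43, Prtn3, a granule protease, 58 against 63, and Lyz2, lysozyme, 47 against 42. Ly86 had 25 against 0, and Ctsg and Csf1r had 16 against 5 each. For these, 1 cell held 48%, 71.4% and 42.9% of the UMIs. Of the list's 16 genes with at least 10 UMIs, 5 had an interval above 0 and 1 had an interval below 0. The 5 were Ly86, Ctsg, Csf1r, Plac8 and Irf8, and 1 cell held 38.9% of the Irf8 UMIs. The share of all genes with such intervals at this minimum is not given, so these counts are no result about the list. The erythroid list was mainly Car2, carbonic anhydrase, with 256 against 262. The macrophage list had 43 UMIs on the moderate and 9 on the low side, with a highest cell of 918 and 99.4 CPM and a median cell of 0 on both. The granulocyte and monocyte median was 0.19, -0.16 in pool 1 and 0.49 in pool 2, and 0.00 without genes held by 1 cell. Of its later members, Ms4a3, Cebpe, Hp and S100a8 had no UMI. Ltf and S100a9 had 0 against 1, Camp 2 against 1 and Elane 2 against 3. Plac8, expressed in lymphoid-primed and myeloid progenitors, had 253 against 184 UMIs (0.38, 0.10 to 0.67), and 829 CPM above 2000. The part of these genes in the other differences was not tested. Itgam, the gene of CD11b, had 20 against 18 UMIs.

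Across the medians of 3 other antibody signals in the same cells, Dntt had a lower level above than below. Above the CD16/32 median, Dntt was at 413 CPM against 922 CPM below it, a log2 ratio of -1.16 (-1.40 to -0.92), with -1.31 and -0.93 in the pools. Across the Sca-1 median it was at 472 against 798 CPM (-0.76, -0.995 to -0.518; -0.93 and -0.45), and across the cKit median at 551 against 770 CPM (-0.48, -0.72 to -0.25; -0.65 and -0.38). By CD127 it was at 643 against 625 CPM. The low CD127 cell with 90 Dntt UMIs lay below all 3 medians. Without it the ratio was -0.88 (-1.13 to -0.63) for CD16/32, -0.43 (-0.68 to -0.18) for Sca-1 and -0.13 (-0.37 to 0.12) for cKit, against 0.50 for CD127. These divisions share their cells, and the differences between them were not tested. For reference, Ly6a, the gene of Sca-1, had a ratio of 1.99 (0.91 to 3.23) across the Sca-1 median, and Kit one of 0.30 (-0.02 to 0.62) across the cKit median.

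Some other single genes also had the same sign in both pools across the CD16/32 median. Over all genes this held for 50.0%, with a Pearson correlation of 0.01 between the pools, and Dach1 had 1.66 and -0.88. Ighm had a ratio of -0.70 (-0.98 to -0.42), Flt3 -0.50 (-0.75 to -0.25), Hlf 0.71 (0.46 to 0.96) and Mpo, the peroxidase of granulocyte precursors, 0.81 (0.22 to 1.42) across its median. Across the CD127 median Mpo had -0.36 in pool 1 and 2.35 in pool 2. Of the lymphoid priming genes, 9 of 33 were higher above the CD16/32 median, beside 49.7% of all genes in that division. Above the cKit median 8 of 33 were higher, beside 49.5% of all genes, and above the Sca-1 median 14 of 33, beside 48.9%. The pools differed for cKit, where the median log2 ratio of these genes was -0.43 in pool 1 and 0.08 in pool 2. For CD16/32 it was -0.34 and -0.14. Above the CD127 median 16 of 33 were higher, beside 46.5% of all genes. The 9 cells with CD127 above 2000 had a median CD16/32 signal of 179, and the moderate and low cells 593 and 435.

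**Figure D5:**
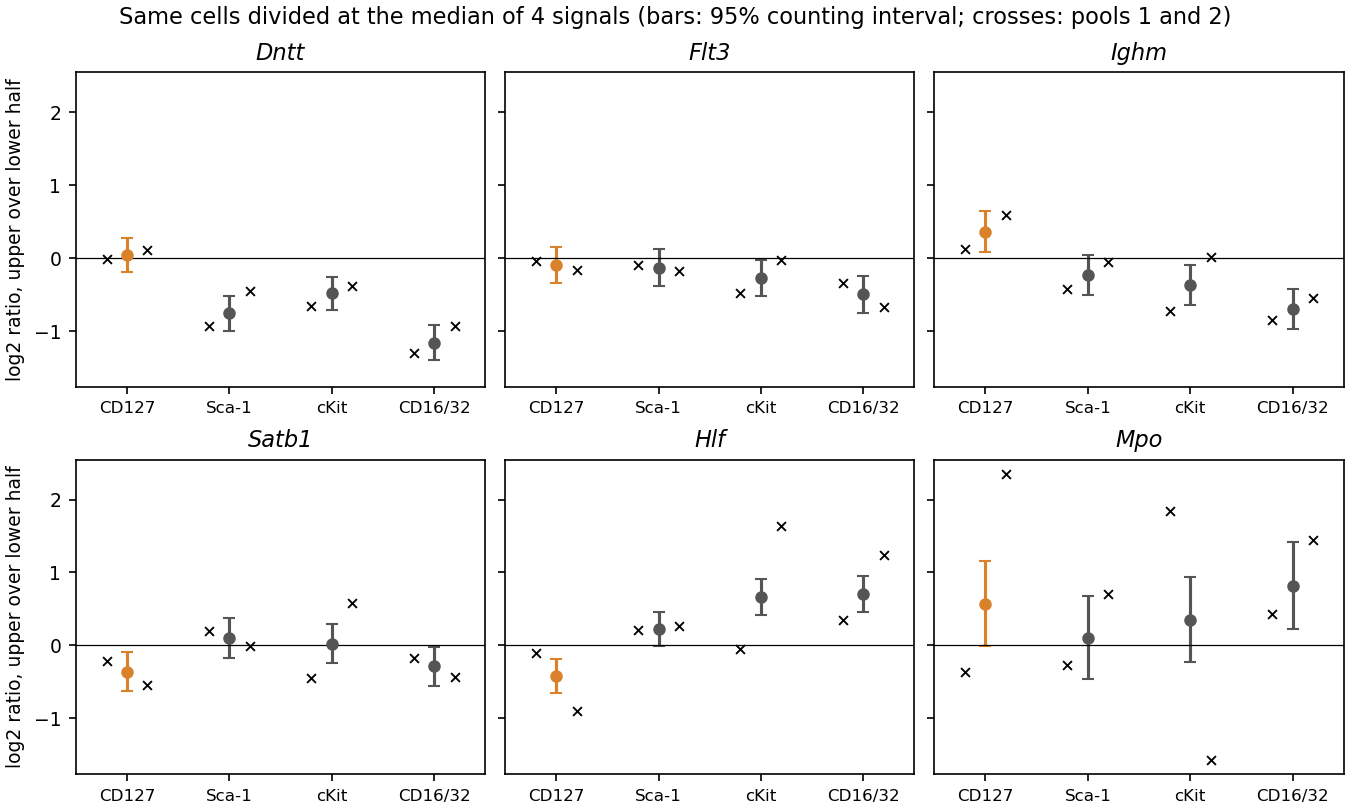
Log2 ratio of cells above over below the median of 4 antibody signals in the same CD135-high cells (vertical) for 6 genes; points are both pools with 95% counting intervals and crosses pools 1 (left) and 2 (right). Dntt lies at 0.04 for CD127 and between -1.16 and -0.48 for the other 3 signals.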

How the data were processed

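The authors deposited raw UMI counts per gene and cell (20764 genes and 71 spike-ins) from an adapted CEL-seq2 protocol with UMIs of 6 bases, per the labels' protocols. Not given in the sources used here are the aligner and the counting tool. The submitters' processing notes name GRCh38, a human build, while gene identifiers are those of mouse Ensembl; coordinates were taken by identifier from GENCODE M21 on GRCm38. Of the genes, 20530 had a symbol.

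Pools follow the first index of a cell's title. Cells under 20% of their pool's median gene UMIs were dropped after ranking, which removed 1 cell with low CD135. Doublets were not called, as cells were sorted singly. UMIs were summed per side and divided by all gene UMIs, without spike-ins. Log2 ratios have exact conditional binomial 95% intervals; a side with no UMI was set at 3 UMIs. A list's value is the median over members with at least 10 UMIs. Shares of cells were also computed after thinning to 12147 UMIs. Calculations used Python 3.11.15 with numpy 2.4.6, pandas 2.3.3 and scipy 1.17.1, and were tested on simulated data.

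The named genes were the 12 per direction whose interval lay farthest from 0, among those with at least 50 UMIs of which 1 cell held at most 20%, and with ratios of equal sign in the pools; predicted models, pseudogenes and ribosomal protein genes were left out. Added were the genes of the labelled proteins, Dntt, Rag1 and Dach1, measured members of the interleukin-7 and lymphoid lists, and up to 4 members of other lists. The cells, the 21 lists and the comparisons were chosen with earlier results of these data known. Alternatives covered pools, scaling, weights of cells, matching for CD135 or forward scatter, cutoffs and single cells.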

Additional observations from a re-analysis of the deposited data

How the results depend on the processing

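Cells are 1 sample, so the values below show how choices move them and not how animals differ. With 27 cells a side, genes under about 50 UMIs have intervals wider than 2-fold, and genes well above 50 UMIs can have them too. Il2rg, with 38 against 62 UMIs, had an interval from -1.40 to -0.18. A list median was taken to have moved when it shifted by more than 0.21, the median SD between pools over the 21 lists, a spread chosen after the values were seen. Values of 1 pool use genes with at least 10 UMIs in that pool. The share of genes higher and lower on the moderate side was 1.94% and 3.99% at 20 UMIs, 0.306% and 0% at 100 UMIs, 4.11% and 6.36% at 1.5-fold, and 3.70% and 6.94% by an interval excluding 0. The stem cell median was 0.11 in pool 1, -0.44 in pool 2 and 0.072 in the 24 cells of highest CD135 per pool. The S phase median was 0.49 in pool 1, -0.34 in pool 2, 0.86 between outer terciles of CD127, -0.49 without CD127 above 1000, 0.047 in the 24 cells and 0.029 without its leading cell. The G2 and M phase median was 1.45 in pool 1, -0.049 in pool 2, 0.78 with cells weighted equally, 0.79 with forward scatter matched, 0.046 without CD127 above 1000, 0.65 in the 24 cells, 0.83 at a minimum of 1 or 50 UMIs, 0.20 without its leading cell, -0.080 without the 5 cells with the highest share of its genes (added after seeing the data) and 0.51 without genes held by 1 cell (also added). Dntt was at -0.65 with CD135 matched, -0.25 between terciles, -0.20 without those 5 cells and 0.50 without its leading cell. Dach1 was at -2.86 in pool 2 and -1.78 without its leading cell. Pool 2 had 0 Il7r UMIs. Ratios reversed in the 24 cells for Copa (-0.12), Irf8 (-0.19), Sox4 (0.11), Hlf (0.24) and Smc4 (-0.21), as did the CD127 to CD135 correlation of pool 2 (0.12). In pool 1 alone Irf8 (-1.83) and Bub1b (-0.64) reversed, and in pool 2 alone Smc4 (-0.32) and Hmgb2 (-0.75). Top2a in pool 2 was at -0.049, that pool's median over all genes, and was counted as reversed. Without CD127 above 1000 Top2a (-0.23) and Hmgb2 (-0.44) reversed, without the 5 cells Smc4 (-0.12) and Hmgb2 (-0.18), and without its leading cell Hmgb2 (-0.015). The cause was not tested. Of the remaining values, 123 of these main results and 1978 of single genes and other lists stayed within the spread, and 169 of the latter moved without reversing. No paired analysis was possible because cells carry no replicate number shared between the sides.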
